A study of Mus musculus with 30 samples.

Results

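The 8 genes described here encode myosin light chains and the kinases that phosphorylate them: Myl1, Myl2, Myl3, Myl4, Myl7, Myl9, Mylk and Mylk3. They were taken by name from a table of 48820 genes, all 8 were found, and all 8 passed the filter on low counts. RNA was measured in hearts of wild-type (WT), untreated mice at 10 ages with 3 libraries per age, 30 in all, after selection of poly(A) RNA. Embryonic hearts were taken at E10.5 and then at steps of 2 days (E12.5, then E14.5, then E16.5) until E18.5. Hearts after birth were taken on day 1 (P1) and after 1 week (1W), 2 weeks (2W), 4 weeks (4W) or 8 weeks (8W). The labels give no strain and do not tell separate animals from pools or repeat libraries, so a p-value here refers to the spread between libraries, which may be technical.

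A myosin motor is a heavy chain whose lever arm carries an essential and a regulatory light chain. In cardiac muscle the ventricular motor is best known for carrying Myl2 (regulatory) and Myl3 (essential), and the atrial motor for Myl7 (regulatory) and Myl4 (essential). Phosphorylation of the regulatory chain by a calmodulin-dependent kinase tunes the force and kinetics of contraction in the heart, and in smooth muscle it switches contraction on. Mylk3 is the cardiac kinase, Mylk the kinase best known from smooth muscle and non-muscle cells, and Myl9 a regulatory chain of those cells. Myl1 is the essential chain of fast skeletal muscle.

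The upstream sequences of 4 members are shown, chosen with their motif matches and courses over age known. The windows of Myl3, Myl7 and Myl9 shared an element, the CArG box, and the Myl4 window held none of the motifs searched. The sequences are the 250 bases before the RefSeq start of each gene in GRCm38.p6, on the strand of the gene, 5′ to 3′. Capitals mark letters that matched a searched motif on either strand. The motifs were the CArG box and the MEF2 site (searched by name as degenerate patterns), the M-CAT element (CATTCC), the TATA box (TATAAA) and a GATA element (AGATAA). The Myl7 window is chr11:5898783-5899032 on the minus strand and the Myl4 window chr11:104550413-104550662 on the plus strand. The Myl3 window is chr9:110763428-110763677 and the Myl9 window chr2:156775214-156775463, both on the plus strand.
Myl7: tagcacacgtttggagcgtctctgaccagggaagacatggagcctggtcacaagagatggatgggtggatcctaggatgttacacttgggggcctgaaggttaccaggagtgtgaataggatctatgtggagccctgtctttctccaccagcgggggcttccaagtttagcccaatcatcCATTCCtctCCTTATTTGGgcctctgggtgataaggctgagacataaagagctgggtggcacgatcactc
Myl4: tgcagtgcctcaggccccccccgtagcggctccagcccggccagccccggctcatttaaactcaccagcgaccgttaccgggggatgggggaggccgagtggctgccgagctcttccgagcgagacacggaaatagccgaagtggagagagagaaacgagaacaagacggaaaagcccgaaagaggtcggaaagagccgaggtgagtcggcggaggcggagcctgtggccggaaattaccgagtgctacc
Myl3: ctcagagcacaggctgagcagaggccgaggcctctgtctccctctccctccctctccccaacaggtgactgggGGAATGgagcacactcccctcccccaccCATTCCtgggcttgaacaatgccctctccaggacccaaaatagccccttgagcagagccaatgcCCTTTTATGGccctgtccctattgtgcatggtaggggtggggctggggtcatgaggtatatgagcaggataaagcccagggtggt
Myl9: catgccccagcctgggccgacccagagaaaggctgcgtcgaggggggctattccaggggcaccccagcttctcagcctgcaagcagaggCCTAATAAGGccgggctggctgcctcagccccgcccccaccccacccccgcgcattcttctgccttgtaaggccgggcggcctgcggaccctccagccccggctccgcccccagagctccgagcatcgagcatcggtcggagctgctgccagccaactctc

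A CArG box, the DNA element known to bind serum response factor, was found in 3 of these windows. It read CCTTATTTGG at -61 to -52 in Myl7, CCTTTTATGG at -85 to -76 in Myl3 and CCTAATAAGG at -161 to -152 in Myl9, counted from the start site. Of 32851 promoter windows of the same length, 1.47% held a CArG box, 12.64% an M-CAT element, 12.37% a TATA box, 9.99% a GATA element and 2.92% a MEF2 site. Myl7 also held an M-CAT element at -70 to -65, and Myl3 held a pair of them, at -177 to -172 and -149 to -144. The Myl4 window held none of these letters. Only this window was searched for Myl4, a gene with 8 annotated transcripts, and which start the heart uses was not tested. The windows searched for Myl1, Myl2, Mylk and Mylk3, not shown, held no CArG box. An M-CAT element lay at -80 to -75 in Myl1, -158 to -153 in Mylk and -148 to -143 in Mylk3. Myl1 and Myl2 also held a TATA box, and Myl2 and Mylk3 a GATA element. The Myl2 windows, and the Mylk3 window with the GATA matches, did not lead into a GENCODE transcript of their gene. The M-CAT element of Mylk3 lay in another window, which did. A match is a run of letters and was not tested for binding or for any part in the courses over age.

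Levels below are CPM, the counts of a gene scaled to a common library size with TMM factors (a trimmed mean of log ratios), and changes are log2(later/earlier) ± SE from edgeR's quasi-likelihood test. A gene is said to have risen or fallen where its Benjamini-Hochberg adjusted p over all 19280 tested genes was under 0.05. Library totals ranged from 23164934 to 50519452 counts, and the members together held 0.691% to 1.118% of them. Summed CPM of 7 cardiomyocyte markers ranged from 17672.7 to 148854.4, so the labelled tissue carried its defining markers in every library. One library, E10.5 replicate 2, stood apart in the small nuclear RNA Rn7sk (32231 CPM, against 6112.9 and 5666.5 in the other libraries of that age). The mean chi-square per gene, a measure of disagreement between 2 libraries, was 195.74 and 229.0 in its pairs with replicates 1 and 3. Between those it was 17.76. Replicate 2 also had the highest values of its age for the 6 light chains and the lowest for Mylk and Mylk3. Its summed cardiomyocyte markers were the lowest of that age (18301.3 CPM, against 36635.6 and 28428.0). Changes from E10.5 are therefore also given without it. Libraries of P1 carried Y-linked transcripts without Xist, and those of 4W and 8W Xist without Y-linked transcripts, so sex and age cannot be told apart there. Both kinds of transcript were present in 3 libraries of E10.5, 2 of E12.5 and 2 of E14.5, and in none from E16.5 on. At E16.5, E18.5, 1W and 2W some libraries carried Xist alone and others Y-linked transcripts alone. The 3 libraries of each of those ages were therefore not all repeats of 1 sample. Mitochondrially encoded genes made up 5.28% to 6.93% of counts at P1 and 18.87% to 19.18% at 8W.

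**Figure D1:**
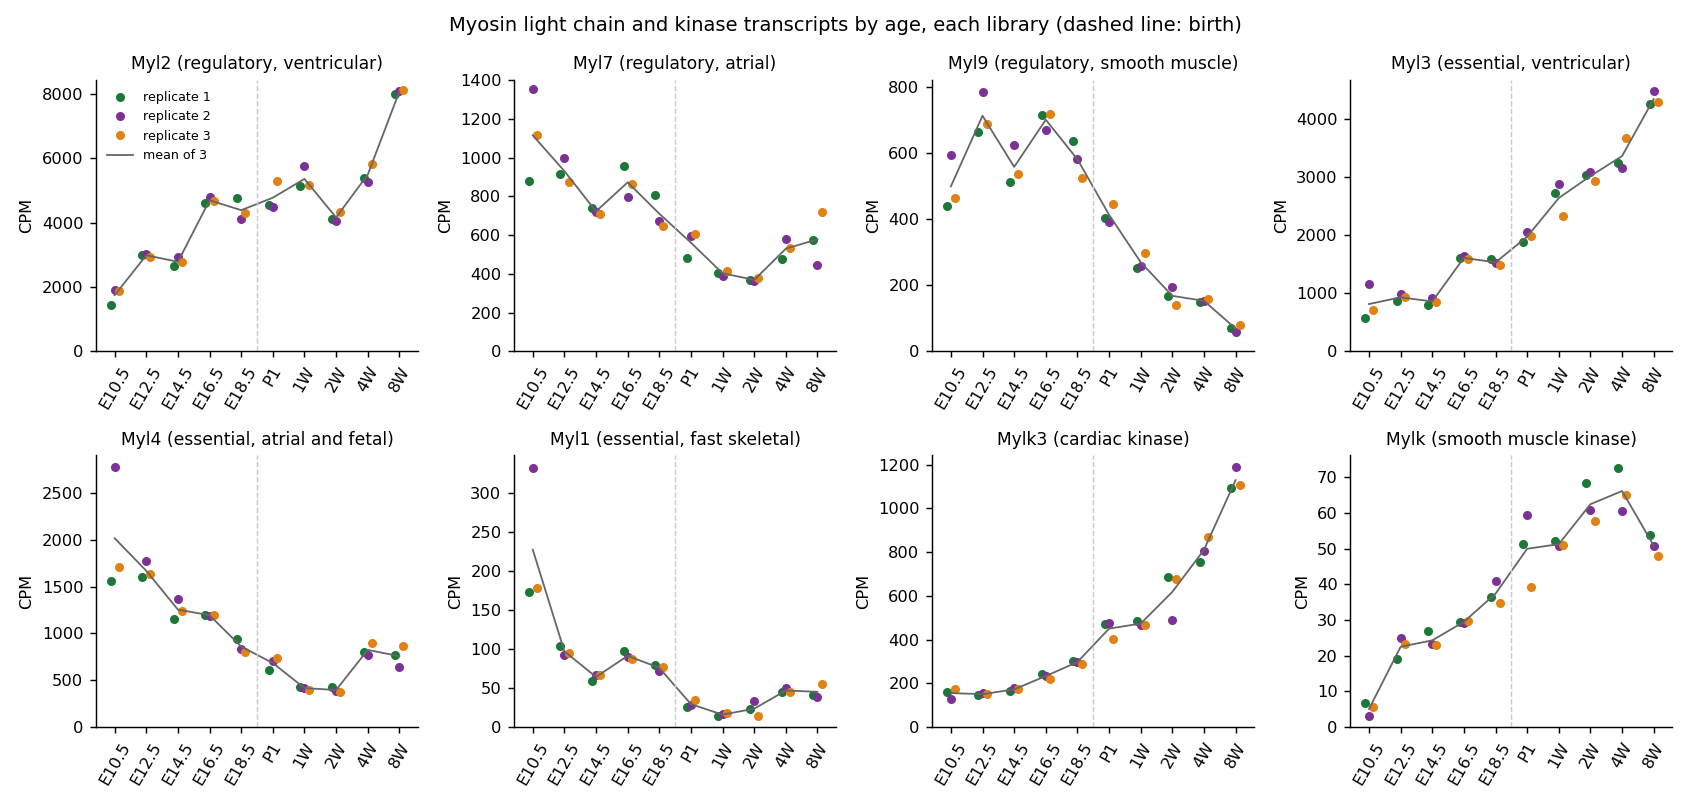
CPM of each of the 8 members (vertical axes, linear and starting at 0) at 10 ages (horizontal axes), with 1 point per library, coloured by replicate number, and a line through the means of 3; the dashed line marks birth. Myl2, Myl3 and Mylk3 ended at their highest level at 8W, Myl1, Myl4 and Myl7 began at their highest at E10.5, Myl9 had its lowest at 8W, and Mylk reached its highest mean at 4W.

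Among the regulatory light chains, Myl2 rose in 2 embryonic steps and 2 late postnatal steps. Its CPM at E10.5 was 1441.2, 1910.0 and 1885.0, at E12.5 2997.5, 3018.3 and 2944.2, and at E14.5 2639.3, 2945.5 and 2764.7. It was 4611.5, 4797.0 and 4682.9 at E16.5, 4757.4, 4102.4 and 4307.6 at E18.5, and 4537.4, 4491.5 and 5302.9 at P1. The libraries of E10.5 were below all others, and those of E16.5, E18.5 and P1 overlapped. After birth Myl2 measured 5139.9, 5774.3 and 5170.7 CPM at 1W, 4107.1, 4061.5 and 4323.2 at 2W, 5382.9, 5280.4 and 5814.7 at 4W, and 8012.8, 8108.2 and 8113.6 at 8W. All 3 libraries of 8W stood above every other library.

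Myl2 rose by 0.78 ± 0.09 from E10.5 to E12.5 (adjusted p = 1.7e-08, edgeR), or 0.85 without E10.5 replicate 2. It rose by 0.76 ± 0.09 from E14.5 to E16.5 (adjusted p = 1.9e-07). A fall of 0.36 ± 0.09 on the log2 scale from 1W to 2W (adjusted p = 0.0028) was followed by rises of 0.40 ± 0.09 to 4W (adjusted p = 0.0013) and 0.56 ± 0.09 to 8W (adjusted p = 5e-05). The rise to 4W missed the threshold when libraries were scaled by their total alone (0.17, adjusted p = 0.13). Myl2 rose from E10.5 to E18.5 by 1.33 ± 0.09 (adjusted p = 4.7e-14, edgeR; 1.40 without E10.5 replicate 2). It rose from P1 to 8W by 0.76 ± 0.09 (adjusted p = 1.4e-08), which was -0.01 with scaling by library total alone. Ordered by mean, neighbouring ages of Myl2 overlapped in 6 of 9 cases, among them 4W with 1W and E12.5 with E14.5. The ratio of its highest to its lowest age mean was 4.63.

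Myl7, the atrial regulatory chain, was highest in the youngest hearts and reached its lowest level at 2W. Its CPM was 878.6, 1353.7 and 1115.3 at E10.5, 916.1, 999.5 and 877.3 at E12.5, and 738.1, 721.3 and 709.5 at E14.5. At E16.5 it was 957.3, 796.5 and 864.4, at E18.5 809.9, 673.5 and 649.9, and at P1 481.7, 594.6 and 605.7. Each library of P1 was below each library of E18.5. The postnatal values were 406.0, 389.6 and 414.9 at 1W, 368.8, 362.0 and 377.1 at 2W, 475.2, 580.7 and 535.0 at 4W, and 572.5, 445.4 and 717.7 at 8W. Each 4W library lay above those of 1W and 2W, and the 8W libraries had the widest spread after birth.

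From E10.5 to E18.5 Myl7 fell by 0.65 ± 0.13 (log2, adjusted p = 0.00011, edgeR), and by 0.48 without E10.5 replicate 2 (adjusted p = 0.0043). Among neighbouring ages it fell from E18.5 to P1 (-0.34 ± 0.13, adjusted p = 0.043) and from P1 to 1W (-0.47 ± 0.13, adjusted p = 0.0063). The first of these calls was lost without E10.5 replicate 3, E18.5 replicate 1 or 2, or P1 replicate 1 or 2, with the smallest change, -0.24, and adjusted p = 0.22 without E18.5 replicate 1. It was also lost with a sex term (-0.37, adjusted p = 0.063) and without the filter on low counts (-0.35, adjusted p = 0.062). Myl7 then rose by 0.52 ± 0.13 from 2W to 4W (adjusted p = 0.0038), which with scaling by library total alone was 0.30 (adjusted p = 0.068).

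Myl9, the regulatory chain of smooth muscle and non-muscle cells, lay between 391.3 and 786.8 CPM through P1 and was lower at every later age. It measured 439.9, 595.5 and 464.6 CPM at E10.5, 666.3, 786.8 and 689.0 at E12.5, 514.7, 625.1 and 537.8 at E14.5, and 715.7, 669.7 and 720.6 at E16.5. At E18.5 it was 637.7, 581.8 and 526.3, at P1 404.0, 391.3 and 447.0, and at 1W 252.3, 258.8 and 297.5. It reached 168.2, 194.8 and 139.9 at 2W, 148.4, 152.5 and 158.9 at 4W, and 69.1, 57.2 and 80.8 at 8W. Only the libraries of 2W and 4W overlapped among neighbouring postnatal ages, and the 8W libraries were the lowest of all 30.

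The fall of Myl9 from P1 to 8W was the largest among the 8 members over that interval, at -2.59 ± 0.13 or 6-fold (adjusted p = 1.1e-17, edgeR), and -3.36 with scaling by library total alone. It fell from E18.5 to P1 (-0.49), P1 to 1W (-0.62), 1W to 2W (-0.69) and 4W to 8W (-1.15, adjusted p = 4.9e-08). Before birth it rose from E10.5 to E12.5 (0.51 ± 0.12, adjusted p = 0.00051, or 0.66 without E10.5 replicate 2). This was followed by a fall of 0.35 and a rise of 0.33, both close to the threshold (adjusted p = 0.037 and 0.041). The fall was lost in 4 of the 6 leave-outs of an E12.5 or E14.5 library, and the rise in 5 of the 6 leave-outs of an E14.5 or E16.5 library and under the other 3 scalings. Between E10.5 and E18.5 the change of 0.22 ± 0.12 missed the threshold (adjusted p = 0.11), and without E10.5 replicate 2 it was 0.37 (adjusted p = 0.012).

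Smooth muscle markers moved beside Myl9 in part. The summed CPM of Acta2, Tagln, Myh11, Cnn1 and Smtn was 1704 to 2035.6 at E10.5, 1069.6 to 1209.2 at P1, 1409.9 to 1589.3 at 4W and 533 to 762 at 8W. From P1 to 8W the contractile genes Acta2 (-1.28 ± 0.17), Tagln (-0.86 ± 0.15) and Cnn1 (-1.24 ± 0.11) fell, while Myh11, the smooth muscle myosin heavy chain, rose by 0.80 ± 0.26 and Smtn by 1.12 ± 0.08. From 1W to 4W Myl9 went down while the summed markers went from 1002.9 to 1178.8 up to 1409.9 to 1589.3 CPM. The part of these markers in the Myl9 result was not tested, and in bulk tissue fewer cells of a type and less RNA per cell cannot be told apart.

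Among the essential light chains, Myl3, the ventricular form, rose in 4 of the 9 steps between neighbouring ages and fell in none. Its CPM was 572.7, 1158.3 and 712.4 at E10.5, 865.3, 990.3 and 934.1 at E12.5, 800.1, 919.3 and 856.6 at E14.5, and 1608.3, 1640.2 and 1584.7 at E16.5. It was 1590.4, 1514.9 and 1491.3 at E18.5, 1888.9, 2053.2 and 1986.2 at P1, and 2720.4, 2879.5 and 2327.5 at 1W. It reached 3044.6, 3085.7 and 2929.6 at 2W, 3249.8, 3166.1 and 3681.4 at 4W, and 4262.9, 4485.8 and 4295.5 at 8W. From E18.5 on, no age overlapped the next, and E10.5, E12.5 and E14.5 overlapped one another, E10.5 through replicate 2 alone. The change from E10.5 to E12.5 was 0.19 ± 0.14 and not called (adjusted p = 0.25, edgeR). Without E10.5 replicate 2 it was a rise of 0.54 (adjusted p = 5.4e-06).

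The largest step of Myl3 was a rise of 0.91 ± 0.14 from E14.5 to E16.5 (adjusted p = 9.3e-06, edgeR). From E10.5 to E18.5 it rose by 0.91 ± 0.14 (adjusted p = 1.1e-06), and by 1.26 without E10.5 replicate 2. From P1 to 8W it rose by 1.14 ± 0.14 (adjusted p = 2.1e-08), which became 0.36 with scaling by library total alone (adjusted p = 0.0059). The steps to P1 (0.37, adjusted p = 0.034), 1W (0.42, adjusted p = 0.017) and 8W (0.37, adjusted p = 0.049) each lost their call in some leave-outs. That to P1 was also lost with a sex term (0.36, adjusted p = 0.075) and with scaling by library total alone (0.25, adjusted p = 0.088). That to 8W was lost with scaling by library total alone (0.22, adjusted p = 0.19), upper quartile factors (0.32, adjusted p = 0.096), a sex term (0.37, adjusted p = 0.056) and both other filters on low counts (adjusted p = 0.062 and 0.053). Among the leave-outs, the first was lost without any 1 of the 3 E18.5 libraries or without P1 replicate 2 or 3 (lowest 0.34), the second without P1 replicate 1 or 1W replicate 2 (0.37 to 0.39), and the last in most leave-outs, libraries of other ages included.

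Myl4, the essential chain of atria and of fetal muscle, declined 5.1-fold between its highest and lowest age means, then rose 2.08-fold from 2W to 4W. It measured 1562.4, 2779.3 and 1704.2 CPM at E10.5, 1598.8, 1772.3 and 1630.3 at E12.5, 1150.3, 1365.6 and 1243.5 at E14.5, and 1193.2, 1185.4 and 1200.9 at E16.5. It was 935.6, 836.5 and 802.3 at E18.5, 606.4, 709.3 and 733.5 at P1, 430.5, 416.7 and 399.2 at 1W, and 428.1, 382.8 and 373.6 at 2W. At 4W it was 799.2, 768.4 and 900.3, and 8W gave 763.6, 638.3 and 866.6. Each 4W library was above each library of 1W, 2W and P1, and the 4W values overlapped those of E18.5.

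Myl4 fell by 1.23 ± 0.14 from E10.5 to E18.5 (adjusted p = 5.4e-09, edgeR), and by 0.93 without E10.5 replicate 2 (adjusted p = 5.2e-10). It fell by 0.72 ± 0.14 from P1 to 1W (adjusted p = 0.00014) and rose by 1.06 ± 0.14, a 2.08-fold change, from 2W to 4W (adjusted p = 1e-06). The rise to 4W was 0.83 with scaling by library total alone and 1.06 with a term for sex (adjusted p = 1.1e-05). All 4W libraries carried Xist alone, so that term rests on other ages and cannot separate sex from age at 4W. The earlier fall from E12.5 to E14.5 (-0.41, adjusted p = 0.034) was lost in 5 of the 6 leave-outs of a library of those ages, and that from E16.5 to E18.5 (-0.48, adjusted p = 0.011) without E18.5 replicate 3 (-0.43, adjusted p = 0.061).

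Some atrial markers moved with the 4W rise. Beside Myl4 (1.06), Myl1 (1.00) and Myl7 (0.52), the atrial natriuretic peptide gene Nppa rose by 1.06 ± 0.12, the calcium pump regulator Sln by 1.31 ± 0.15 and Stard10 by 1.22 ± 0.13 from 2W to 4W. Myl2 (0.40) and Mylk3 (0.39) also rose in that step. Bmp10 (0.06) and Dkk3 (0.04) did not pass the test, and Nr2f2, a transcription factor known from atrial and venous cells, fell by 0.31, so 3 of the 6 listed atrial markers rose and 1 fell, where 28.9% of all genes were called. Their summed CPM was 1116.9 to 1530.4 at 2W and 2257.1 to 2517.1 at 4W. Of the smooth muscle markers, 3 of 5 rose and 0 fell in the same step. Before birth the atrial sum went apart from Myl4 and Myl7: the sum was 458 to 650 at E10.5 and 1438.4 to 1579.7 at E18.5 while both members fell. The part of these markers in these results was not tested.

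**Figure D2:**
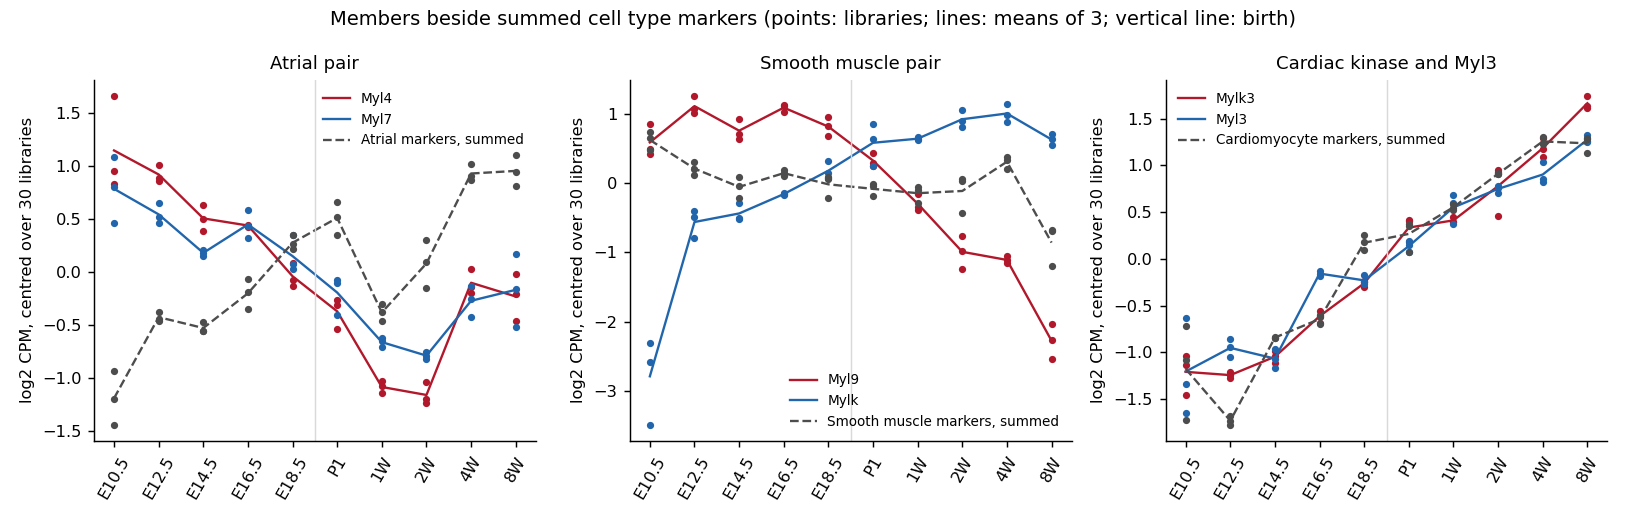
Log2 CPM, centred on the mean over 30 libraries (vertical axes), at 10 ages for Myl4 and Myl7 beside the summed atrial markers, Myl9 and Mylk beside the summed smooth muscle markers, and Mylk3 and Myl3 beside the summed cardiomyocyte markers; points are libraries, solid lines are means of members, dashed lines means of marker sums, and the vertical line is birth. Myl4, Myl7 and the atrial sum were all higher at 4W than at 2W (Myl4 2.08-fold), but from E10.5 to E18.5 the atrial sum went up while both members fell.

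Myl1, the essential chain of fast skeletal muscle, was highest at E10.5 and lowest at 1W, with a ratio of 14.4 between those means. Its CPM was 173.2, 331.8 and 177.5 at E10.5, 103.7, 92.3 and 94.4 at E12.5, 59.0, 67.1 and 66.2 at E14.5, and 96.9, 89.2 and 87.2 at E16.5. It was 79.4, 71.2 and 76.5 at E18.5, 25.8, 27.7 and 34.1 at P1, and 13.9, 16.3 and 17.3 at 1W. It then measured 22.9, 32.9 and 14.4 at 2W, 44.9, 50.2 and 45.1 at 4W, and 41.5, 39.0 and 54.4 at 8W. All libraries of 1W were below those of P1, and the 2W libraries overlapped both ages.

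Myl1 fell by 1.23 ± 0.22 from E10.5 to E12.5 (adjusted p = 7.2e-05, edgeR; -0.85 without E10.5 replicate 2), by 1.37 ± 0.23 from E18.5 to P1 (adjusted p = 6.1e-05) and by 0.88 ± 0.24 to 1W (adjusted p = 0.0058). It rose by 1.00 ± 0.24 from 2W to 4W (adjusted p = 0.0028), and in a fit of the 6 samples of those ages the change was 0.96 (adjusted p = 0.051). Its rise of 0.62 ± 0.23 from P1 to 8W (adjusted p = 0.022) was lost without P1 replicate 1 or 2 or 8W replicate 3 (0.47 to 0.59), with upper quartile factors (0.43) and with a sex term (0.58, adjusted p = 0.093), and was -0.15 with scaling by library total alone.

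The summed CPM of 6 other fast skeletal genes, Tnnt3, Tnni2, Actn3, Pvalb, Mybpc2 and Myh4, was below that of Myl1 in every library through P1 and above it in every library from 1W on. The sum was 21.8 to 26.6 CPM at E10.5, 15.8 to 19.6 at P1, 31.6 to 44.6 at 1W and 57.4 to 66.8 at 8W, and Myh4 had no count from P1 on. From P1 on most of that sum was Mybpc2, a myosin-binding protein, which at 2W measured 42.4, 67.6 and 17.4 CPM while Myl1 measured 22.9, 32.9 and 14.4. Replicate 2 was thus the highest and replicate 3 the lowest library of 2W for both genes. Of the 31-base words in Myl1 exons, 14.47% also occur in the pseudogene Mylf-ps. That gene is not among the 48820 with counts, so reads of the pair cannot be fully told apart. The part of skeletal muscle transcripts in the Myl1 result was not tested.

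The cardiac kinase Mylk3 rose in 6 of the 9 steps between neighbouring ages and fell in none. Its CPM was 162.0, 129.5 and 173.7 at E10.5, 146.7, 153.2 and 150.8 at E12.5, 164.7, 179.2 and 173.0 at E14.5, and 241.4, 235.4 and 221.1 at E16.5. It was 301.6, 299.5 and 289.6 at E18.5, 472.7, 474.1 and 403.0 at P1, and 485.9, 467.7 and 466.8 at 1W. It reached 685.8, 489.9 and 677.0 at 2W, 756.2, 804.0 and 868.8 at 4W, and 1092.4, 1189.2 and 1105.1 at 8W. The E10.5, E12.5 and E14.5 libraries did not all separate, P1 and 1W overlapped, and the 3 libraries of 8W stood above all others.

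Mylk3 rose by 0.94 ± 0.10 from E10.5 to E18.5 (adjusted p = 1.1e-09, edgeR; 0.83 without E10.5 replicate 2) and by 1.33 ± 0.10, 2.51-fold, from P1 to 8W (adjusted p = 4.2e-13), which was 0.55 with scaling by library total alone (adjusted p = 5.8e-05). The largest neighbouring step was E18.5 to P1, at 0.60 ± 0.10 (adjusted p = 1.5e-05), and the others called were E14.5 to E16.5 (0.43), E16.5 to E18.5 (0.35), 1W to 2W (0.38), 2W to 4W (0.39) and 4W to 8W (0.48). Scaling by library total alone left those to E16.5 and E18.5 short of the threshold (0.28 and 0.30), the step to 2W at 0.10 (adjusted p = 0.52) and the step to 4W at 0.16 (adjusted p = 0.28). The step to 4W was also short of it in a fit of the 6 samples of those ages (0.35, adjusted p = 0.059).

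Mylk, the kinase of smooth muscle and non-muscle cells, was the lowest of the 8 per kilobase at every age, and its main rise came before birth. It measured 6.68, 2.95 and 5.53 CPM at E10.5, 19.0, 25.0 and 23.4 at E12.5, 26.9, 23.2 and 23 at E14.5, and 29.5, 29.3 and 29.7 at E16.5. It was 36.4, 41.0 and 34.7 at E18.5, 51.2, 59.5 and 39.2 at P1, 52.2, 50.7 and 51 at 1W, 68.5, 61.0 and 57.9 at 2W, 72.7, 60.6 and 65.2 at 4W, and 53.8, 50.9 and 48.1 at 8W. No E10.5 library reached 7 CPM, and from E12.5 on no library was below 19.

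Its rise from E10.5 to E12.5 was 2.16 ± 0.18 or 4.46-fold (adjusted p = 2e-10, edgeR), and 1.90 without E10.5 replicate 2 (adjusted p = 1.1e-11). From E10.5 to E18.5 it rose 7.40-fold (2.89 ± 0.18, adjusted p = 2.6e-13; 2.63 without E10.5 replicate 2). The only other called step was E18.5 to P1 (0.42, adjusted p = 0.035), lost with a sex term (adjusted p = 0.063), with scaling by library total alone (0.30, adjusted p = 0.19), without the filter on low counts (0.41, adjusted p = 0.089) and in 4 of the 6 leave-outs of a library of those ages. From P1 to 8W, while Myl9 fell 6-fold, the change of Mylk was 0.03 ± 0.15 (adjusted p = 0.88), or -0.75 with scaling by library total alone (adjusted p = 0.00061). Pericyte markers (Rgs5, Kcnj8, Abcc9 and Cspg4) summed to 132 to 247 CPM at E10.5, 215 to 218 at E12.5 and 569 to 635 at E18.5. Their sum was 756 to 821 at P1, 1904.3 to 2028.8 at 2W and 1692.1 to 1853.7 at 8W. From E10.5 to E12.5 3 of 4 rose and 1 fell, where 55.4% of all genes were called. From E10.5 to E18.5 4 of 4 rose as Mylk did, where 63.3% were called (6337 rose, 5860 fell). In that comparison 4 of 4 endothelial and 4 of 5 fibroblast markers also rose. From P1 to 8W 3 pericyte markers rose and 1 fell, where 66.8% of genes were called. The part of these markers in the Mylk result was not tested.

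Per kilobase of merged exon, the level order of the members changed with age. Myl7 had the highest mean at E10.5 (1891.3 CPM per kb, against 895 for Myl2) and E12.5 (1577.9 against 1531.6, within their spread), and Myl2 from E14.5 on. Myl3 moved from the fifth place at E10.5 to the second from P1, where it measured 967 CPM per kb against 950 for Myl7, within their spread. Mylk was last at every age, at 0.449 CPM per kb at E10.5 and 4.52 at 8W, against 36.2 and 264 for Mylk3. The order of the other members depends on the length used. Merged exons and principal transcript hold 4637 and 943 bases for Myl4, 1950 and 889 for Myl2, and 590 in both for Myl7. Per kilobase of the principal transcript, the mean Myl7 share of Myl2 plus Myl7 was 31.9% at E12.5, so Myl2 stood above Myl7 there.

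Shares within pairs of like role do not depend on the scaling of libraries, because both genes come from the same library. The Myl7 share of Myl2 plus Myl7, per kilobase of merged exon, was 66.8%, 70.1% and 66.2% at E10.5, 36.0%, 35.2% and 33.3% at E18.5, 26.0%, 30.4% and 27.4% at P1, and 19.1%, 15.4% and 22.6% at 8W. The means fell from 67.7% at E10.5 to 20% ± 1.51 (SD, n = 3) at 1W, and were 22.7% at 2W, 24.2% at 4W and 19.0% ± 3.63 at 8W. Embryonic libraries all stood at or above 33.3%, and the postnatal libraries at or below 30.4%.

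The Myl4 share of Myl3 plus Myl4 was 54.6%, 51.4% and 51.3% at E10.5, 20.6%, 19.6% and 19.2% at E18.5, and 5.84%, 5.18% and 5.32% at 2W. It then rose to 9.78%, 9.66% and 9.73% at 4W, with no overlap between the 2 ages, and measured 7.32%, 5.90% and 8.17% at 8W. E10.5 replicate 2, the library with raised light chain values, did not stand apart in this share. The Mylk share of Mylk plus Mylk3 was 1.55%, 0.857% and 1.2% at E10.5 and 4.70%, 5.85% and 5.58% at E12.5. It then declined to a mean of 1.69% ± 0.131 (SD, n = 3) at 8W.

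All 3 shares differed across the ages by a permutation test of the F ratio (100000 resamples, adjusted p = 1e-05 for each over the 3 shares), the smallest p that many resamples can give. The size of a share, but not its course, depends on the length used. Per kilobase of the principal transcript, an alternative chosen after seeing the data, the Myl7 share went from 48.9% at E10.5 to 9.71% at 8W and the Myl4 share from 71.3% to 14.7%. Whether Myl7 stood above Myl2 at E10.5 or E12.5 therefore depends on the length used.

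**Figure D3:**
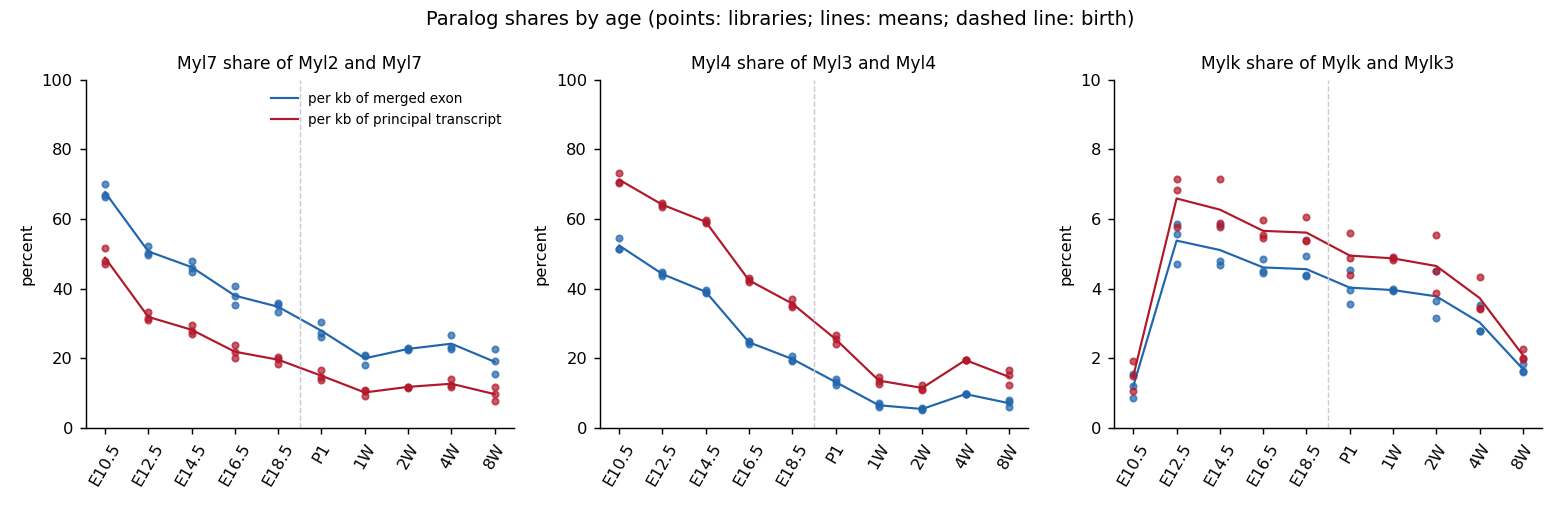
Share in percent (vertical axes, from 0; the third panel ends at 10%) of Myl7 in Myl2 plus Myl7, Myl4 in Myl3 plus Myl4, and Mylk in Mylk plus Mylk3 at 10 ages, per kilobase of merged exon (blue) or principal transcript (red); points are libraries, lines means of 3, and the dashed line is birth. The first 2 shares go from 67.7% and 52.4% at E10.5 (blue) to 27.9% and 13.2% at P1, with lower means at all later ages, and the third peaks at E12.5 with 5.38%.

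Counted over the 8 members, calls were often about as frequent as among all tested genes. Across the 10 ages 8 of 8 members passed the test, against 93.6% of all genes. From E10.5 to E18.5 7 of 8 were called (4 rose, 3 fell) against 63.3% of genes, with a median log2 change of 0.57 against 0.00 for all genes. From P1 to 8W 5 of 8 were called (4 rose, 1 fell) against 66.8%, with a median of 0.39 against -0.10. With scaling by library total alone, which moved the median of all genes by -0.77 in the latter comparison, the split was 2 risen and 4 fallen. Under that scaling Myl3 and Mylk3 still rose and Myl9 still fell, Myl4 (-0.63) and Myl7 (-0.73) fell, and the rise of Myl2 was gone (-0.01, adjusted p = 0.89).

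Before birth, E10.5 to E12.5 gave 4 calls in 8 against 55.4% of all genes (3 rose, 1 fell, or 3 and 3 with upper quartile factors or DESeq2). E12.5 to E14.5 gave 2 against 18.3% (0 rose, 2 fell), E14.5 to E16.5 4 against 26% (4 rose, 0 fell), and E16.5 to E18.5 2 against 24.2% (1 rose, 1 fell, or 0 and 3 with library total alone). The E14.5 to E16.5 step, with a median of 0.38 against 0.00, joined Myl2 (0.76), Myl3 (0.91), Mylk3 (0.43) and Myl9 (0.33). Both ventricular chains rose in it under all 4 scalings.

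Around and after birth, E18.5 to P1 gave 6 calls in 8 against 38.8% of all genes (3 rose, 3 fell, or 1 and 4 with library total alone), and 3 with a sex term. P1 to 1W gave 5 against 35.8% (1 rose, 4 fell): Myl3 rose, and Myl1, Myl4, Myl7 and Myl9 fell. 1W to 2W gave 3 against 29.6% (1 rose, 2 fell, or 0 and 4 with library total alone). 2W to 4W gave 5 against 28.9% (5 rose, 0 fell, or 2 and 1 with library total alone), and 4W to 8W 4 against 23.9% (3 rose, 1 fell, or 2 and 2 with library total alone or upper quartile factors). Neighbouring comparisons share the samples of an age, so their counts are not independent of one another.

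**Figure D4:**
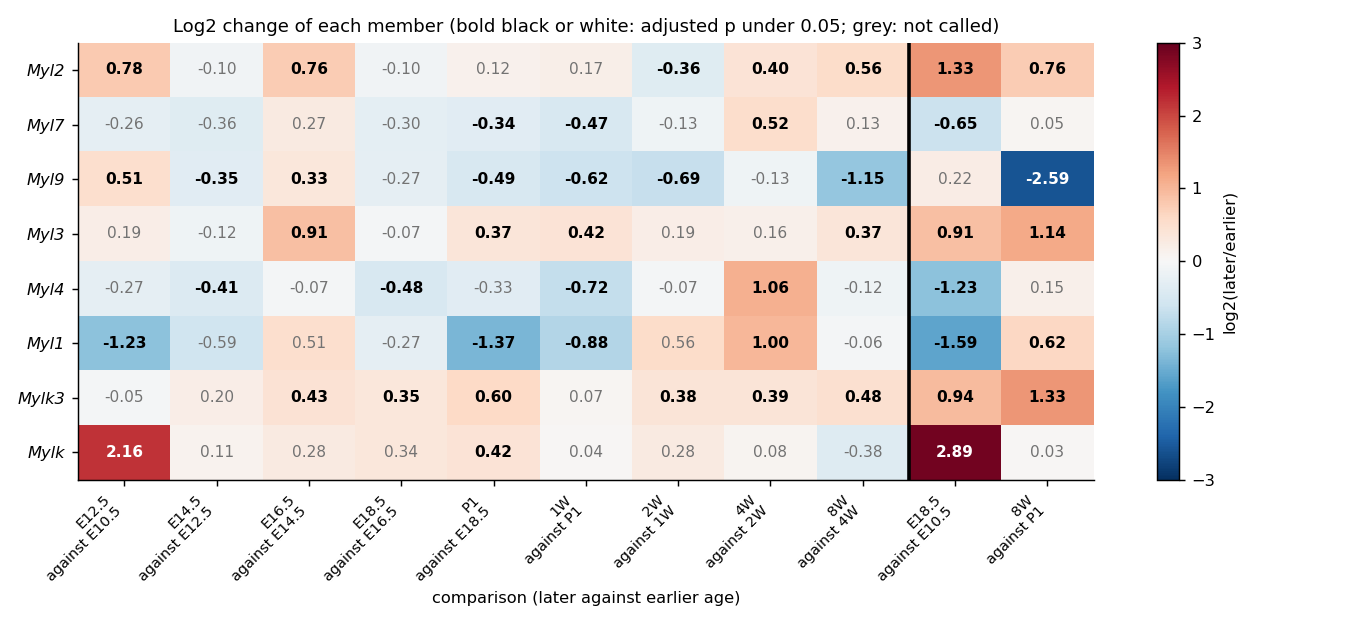
Log2(later/earlier) of each member (rows) in 9 steps between neighbouring ages and, right of the thick line, in E18.5 against E10.5 and 8W against P1 (columns), coloured from blue (lower) to red (higher); bold black or white numbers passed an adjusted p of 0.05 and grey ones did not. The 4W against 2W column holds 5 rises and no fall, and the 1W against P1 column 4 falls and the rise of Myl3.

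The genes with the most similar courses were found by Pearson's r between log2 CPM means over the 10 ages, among 10368 tested genes. These had a mean of at least 10 CPM at 1 age or more. Mitochondrially encoded genes and those with gene model or clone names were left out of the search. The r values are descriptions, with 10 points that share their libraries. Closest to Myl3 were Cox4i1 (0.995), a subunit of cytochrome c oxidase, Echdc3 (0.993) and Cox10 (0.989). Closest to Mylk3 were Ubl3 (0.997), Lpl (0.996), the lipoprotein lipase, and Ndufs1 (0.996), a subunit of complex I. Myl2 was closest to Mfsd11 (0.977), Coq6 (0.97) and Tnnc1 (0.97), the troponin C of cardiac muscle.

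Myl4 was closest to Myl7 (0.972), Tpt1 (0.971) and Nop16 (0.971), and Myl7 to Ebna1bp2 (0.988), the chaperonin subunit Cct3 (0.982) and Nop16 (0.981). Myl1 was closest to the small heat shock gene Hspb3 (0.991), Hspe1 (0.971) and Snrnp48 (0.966). Myl9 was closest to Tgfb1i1 (0.987), Ppfia4 (0.985) and Dzip1l (0.983), and Mylk to Ski (0.99), Zcchc24 (0.988) and Myh11 (0.988). Among the members, r was 0.98 for Myl3 with Mylk3 and 0.96 for Myl1 with Myl7, and -0.91 for Myl9 with Mylk3.

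Of 6 other light chain genes, 5 could be tested and Myl10 had no count in any library. From E10.5 to E18.5 2 rose and 3 fell, against 63.3% of all genes called. The fast skeletal regulatory chain Mylpf measured 19.1, 44.5 and 24.6 CPM at E10.5 and 1.19, 0.92 and 1.13 at E18.5, a change of -4.78 ± 0.26 (adjusted p = 9.9e-17, edgeR). Myl6, the essential chain of smooth muscle and non-muscle myosin, fell by 1.44 ± 0.18, and Myl6b by 1.10 ± 0.34. The non-muscle regulatory chains Myl12a (0.29 ± 0.11) and Myl12b (0.34 ± 0.07) rose. With library total alone or upper quartile factors, 1 rose and 3 fell, and without E10.5 replicate 2, 2 rose and 2 fell.

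From P1 to 8W 2 of these 5 rose and 1 fell, against 66.8% of all genes called. Myl12a went from 334.0, 342.5 and 299.1 to 715.2, 773.1 and 679.4 CPM, a rise of 1.15 ± 0.11 (adjusted p = 3.6e-11, edgeR; 0.38 with library total alone). Myl6 fell by 0.84 ± 0.18, from 147.3, 169.4 and 156.3 to 86.4, 80.2 and 98.0 CPM. The regulatory chains Myl9 and Myl12a thus changed in opposite directions in the same libraries. The split was 1 risen and 2 fallen with library total alone, 2 and 2 with upper quartile factors, and 1 and 1 with a sex term, while Myl6b, called at 1.06 ± 0.37, was at most 1.76 CPM in any library.

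Of 18 genes listed for the control of light chain phosphorylation, 17 were tested, and Mylk2, the skeletal kinase, was not, at no more than 0.72 CPM in any library. From E10.5 to E18.5 8 rose and 5 fell (6 and 7 with library total alone) against 63.3% of all genes called, with a median of 0.29 against 0.00 for all genes. Ppp1r12b, a targeting subunit of myosin phosphatase, rose by 1.99 ± 0.11, from 82.2, 48.7 and 84.2 to 287.4, 279.5 and 286.7 CPM. The calmodulin gene Calm2 fell by 1.58 ± 0.09, and the phosphatase inhibitor Ppp1r14b by 0.83 ± 0.11, whereas Ppp1r14a, the smooth muscle inhibitor, rose by 1.59 ± 0.24 at up to 5.21 CPM. Ppp1cb, the catalytic subunit, fell by 0.57 ± 0.09, and the kinase Rock1 by 0.54 ± 0.10.

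Among these genes the kinase Mylk4 rose most after birth. It measured at most 0.05 CPM at E10.5, 3.24, 4.75 and 3.56 at E18.5, 6.95, 5.87 and 4.56 at P1, 24.2, 22.5 and 28.1 at 1W, and 81.1, 70.5 and 63.0 at 2W. It reached 146.4, 143.2 and 135.5 at 4W and 203.2, 188.5 and 221.3 at 8W. No postnatal age overlapped the next, and the change from P1 to 8W was 5.14 ± 0.16, 35.3-fold (adjusted p = 1.1e-20, edgeR), or 4.37 with library total alone. Per kilobase of merged exon Mylk4 was below Mylk at 1W (3.24 against 4.56 CPM per kb) and above it at 2W (9.30 against 5.55), and at 8W it measured 26.6 against 4.52 for Mylk and 264 for Mylk3.

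From P1 to 8W 10 of the 17 rose and 3 fell against 66.8% of all genes called, with a median of 0.26 against -0.10 for all genes, but with library total alone 2 rose and 13 fell, and with upper quartile factors 7 and 5. Ppp1r12b rose under both scalings (1.33 ± 0.11, and 0.56), from 324.7, 325.4 and 350.0 to 836.7, 842.5 and 840.3 CPM. Ppp1r12a, the targeting subunit best known from smooth muscle, fell by 0.50 ± 0.08, and Ppp1r14b by 0.80 ± 0.12. Dapk1 (0.72), Rock1 (0.70) and Ppp1cb (0.48) were among those that rose. Of 9 tested myosin heavy chain genes, 8 rose and 0 fell from E10.5 to E18.5 (63.3% of all genes called), and 2 rose and 5 fell from P1 to 8W (66.8% called), or 1 and 7 with library total alone and 1 and 5 with upper quartile factors.

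**Figure D5:**
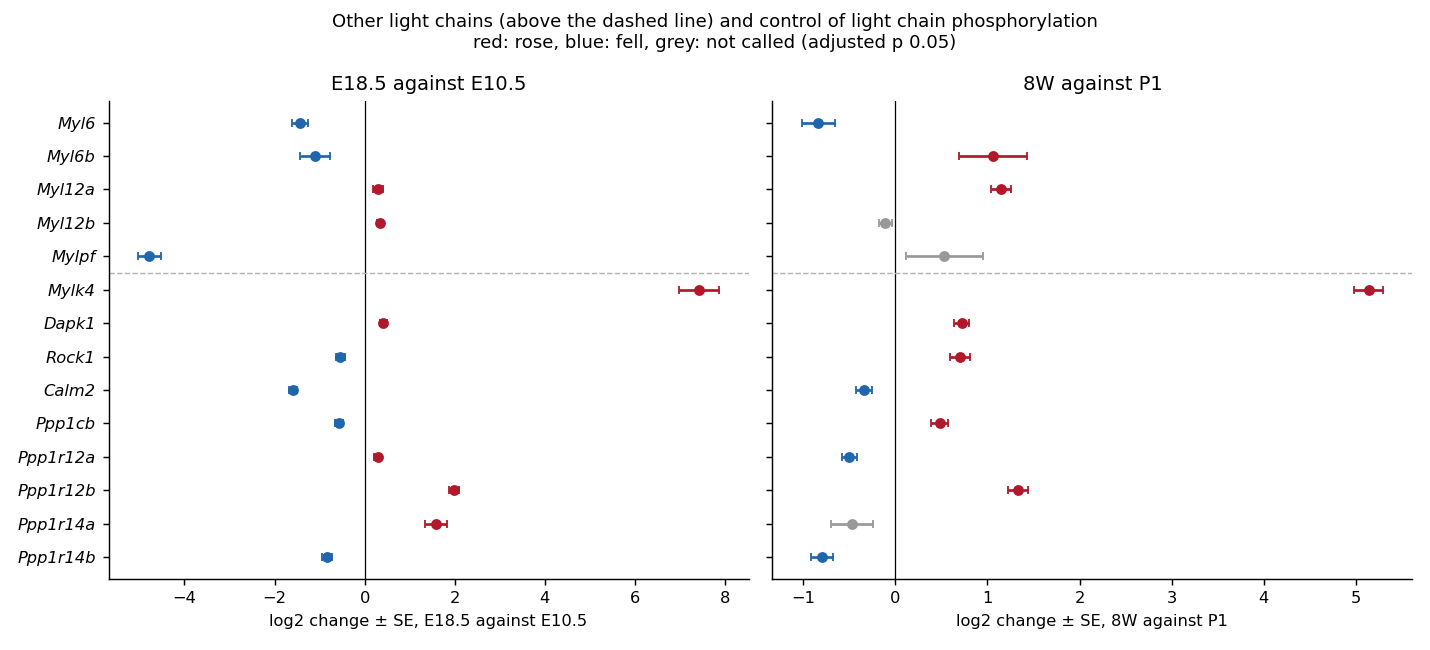
Log2 change ± SE (horizontal axes) of 5 other light chain genes (above the dashed line) and 9 of the 17 tested genes of light chain phosphorylation, those given with values here (below it), for E18.5 against E10.5 and 8W against P1; red rose, blue fell and grey did not pass an adjusted p of 0.05. Mylk4 lies farthest right in both panels (5.14 in the second) and Mylpf farthest left in the first (-4.78).

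The genes lie apart in the genome (GRCm38, GENCODE M21), and only Myl4 and Myl7 share a chromosome. Myl2 is at chr5:122100951-122113472 (plus strand), Myl3 at chr9:110741861-110769798 (plus), Myl4 at chr11:104550663-104595753 (plus), Myl7 at chr11:5896637-5898782 (minus) and Myl9 at chr2:156775420-156781658 (plus). Myl1 is at chr1:66924295-66945404 (minus), Mylk at chr16:34745210-35002420 (plus) and Mylk3 at chr8:85324303-85386345 (minus). Myl3 shares 95 exonic bases with Pth1r on the opposite strand, which held 17660 counts over all libraries against 1964870 for Myl3. Mylk shares 548 exonic bases with the antisense gene E130310I04Rik and 224 with Gm21691, neither of them among the 48820 genes with counts. Whether counting used strand is not given in the sources used here. Reads from such overlaps therefore cannot be told apart.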

How the data were processed

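RNA sequencing of 30 heart libraries was analysed from a single table of expected counts, deposited by the authors with genes in rows. Per the submitters' processing notes the genome builds were mm10 and GRCm38 and the tools STAR 2.5.3a and fastp 0.18.0, with no roles given. How reads were counted, against which annotation and with which strand setting, is not given in the sources used here. Of the values, 6.94% were not whole (tolerance 1e-06), and all were rounded. GENCODE M21 gave symbols, by identifier without version, to 48058 of 48820 genes.

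Genes kept by filterByExpr (19280) went into quasi-likelihood tests of edgeR 4.0.16 (R 4.3.3) with TMM scaling, 10 age means over the 30 samples (20 residual degrees of freedom) and Benjamini-Hochberg adjustment over all genes. Each standard error is the absolute log2 change over the root of its F statistic. The fit was tested on simulated counts. No pair of replicates agreed within sampling noise (lowest mean chi-square per gene 7.35).

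The members, the gene lists and the alternatives were chosen with earlier results of these data known. Named genes were the 8 members, the members of the lists, and for each member the 3 genes with the highest r. Shares used merged exon lengths and were tested by permutation over the ages. Y-linked transcripts were taken as present from 10 CPM summed over 4 genes, and Xist from 50 CPM. The other scalings tried were upper quartile factors, RLE size factors and library size alone. Further alternatives were DESeq2 1.42.0, dropping the filter or requiring 1 CPM in 3 libraries, removing globin and mitochondrially encoded genes, blocking by replicate number, fitting 6 samples at a time, and leaving out single libraries. A sex term and principal transcript lengths were added after seeing the data. The sex term coded libraries with both kinds of transcript as 0.5 and took 1 effect of sex for all ages. It cannot separate sex from age at P1, 4W or 8W. No sequence of a Myl2 promoter or of any protein is shown. Figures were made in Python 3.11.15. One gene of the phosphorylation list is counted but not reported by name here.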

Additional observations from a re-analysis of the deposited data

How the results depend on the processing

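Over 88 member changes and 3520 values under the alternatives, 3370 were counted as unchanged, 85 lost a call, 60 gained one and 5 reversed. A change of sign was counted as a reversal only where at least 1 of the values was called. Changes of sign between uncalled values were counted as unchanged. An example is Myl4 in 8W against P1, at 0.15 and, with upper quartile factors, -0.05. The 5 reversals were all in 8W against P1 with library size alone: Myl1 -0.15 (adjusted p = 0.51, edgeR), Myl2 -0.01 (0.89), Myl4 -0.63 (2.2e-05), Myl7 -0.73 (4.8e-06) and Mylk -0.75 (0.00061). Counts of called members moved most with library size alone at E12.5 to E14.5 (2 to 4), E14.5 to E16.5 (4 to 2) and 2W to 4W (5 to 3). Smaller moves were E16.5 to E18.5 (2 to 3), E18.5 to P1 (6 to 5), 1W to 2W (3 to 4) and P1 to 8W (5 to 6). With only the 6 samples of the comparison they moved to 5, 7 and 3 in the first-named steps and to 6 from 2 at E16.5 to E18.5. Those fits also gave 7 at E18.5 to P1, 4 at 1W to 2W and 5 at 4W to 8W, against 6, 3 and 4. Other settings moved some counts too, such as 4 to 6 at E10.5 to E12.5 with upper quartile factors or DESeq2. With a sex term the count at E18.5 to P1 was 3. The cause was not tested.

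Leaving out each library in turn gave counts of 4 to 6 (E12.5), 0 to 4 (E14.5), 3 to 5 (E16.5), 1 to 3 (E18.5), 3 to 7 (P1), 4 to 6 (1W), 3 to 5 (2W), 5 to 5 (4W) and 3 to 5 (8W), each against the age before. The counts were 7 to 8 for E18.5 against E10.5, 4 to 5 for 8W against P1 and 8 in all cases across the ages. The count at E14.5 was 0 without E12.5 replicate 2 or 3 or E14.5 replicate 1 or 3 (edgeR, with 4 members at an unadjusted p under 0.05 in each case), 1 without E12.5 replicate 1 and 4 without E10.5 replicate 2, and with DESeq2 on all libraries it was 3. The count at E18.5 was 1 without E18.5 replicate 3, that at P1 was 3 without E18.5 replicate 1 or P1 replicate 2, and that at 2W was 5 without E10.5 replicate 2. Between 8W and E10.5 the Myl7 share changed by -48.66 percentage points (-50.46 to -46.83 over leave-outs), the Myl4 share by -45.31 (-45.87 to -44.23) and the Mylk share by 0.49 (0.32 to 0.66).

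With a replicate block, the counts of called members were as in the fit without it in all 12 comparisons (for example 7 for E18.5 against E10.5 and 5 for 8W against P1). Deviations of same-numbered libraries had a median correlation of 0.008 (-0.102 to 0.124), against -0.007 for other pairs (-0.17 to 0.109). Same-numbered libraries thus showed no common deviation over the ages. Whether libraries of some ages share more than a number was not tested. Mylk at E10.5, at 2.95 to 6.68 CPM, rests on the fewest counts of any member.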
